A study of Mus musculus with 21 samples.

Results

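The 31 genes described here are markers of the proximal tubule, read in glomeruli that were cut out of mouse kidney sections. They were taken by symbol from a fixed list: all 31 were found among the 35598 genes of each library, and all 31 passed the filter on low counts. They served as a measure of neighbouring tubule in the dissected tissue. The study took 21 female mice aged 3 months, 1 library per mouse. Nephrotoxic serum, an antiserum against the glomerulus, was given intravenously on 2 consecutive days, control mice were given PBS, and kidneys were taken on day 4 or day 11. Every mouse carried floxed alleles of Epac1 (Epac1fl/fl), a cAMP-activated exchange factor for Rap proteins. In the mice called cKO, a Cre recombinase restricted to podocytes deleted the gene in those cells alone, and their littermates without Cre are called flox. The cKO groups held 3 PBS, 4 day 4 and 4 day 11 mice, and the flox groups held 3 PBS, 3 day 4 and 4 day 11 mice. Frozen sections were laser-microdissected, and the libraries sequenced the 3' end of polyadenylated RNA (QuantSeq FWD).

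The proximal tubule is the first stretch of the nephron after the glomerulus, and its opening joins Bowman's capsule. Its cells take back most of the filtered water, sodium, phosphate, glucose, amino acids and protein, and secrete organic anions and drugs. They burn fatty acids in dense mitochondria, make glucose from lactate and amino acids, and lower many of these transporters and enzymes when injured. The 31 genes are not defining genes of the podocyte, endothelial or mesangial cells of the glomerular tuft, although some, such as the water channel gene Aqp1, are also used by other cells of the kidney.

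Libraries held between 4550550 and 24295712 reads (median 19470098), with 7871 to 13004 genes detected. Levels are CPM, the count of a gene over the TMM-adjusted library size. The deleted gene, Rapgef3 (Epac1), stood at 120 ± 50 CPM in cKO PBS and 269.6 ± 60.3 CPM in flox PBS libraries, at 119.7 ± 38.7 in cKO day 4 and 190.4 ± 57.9 in flox day 4, and at 176 ± 28.6 in cKO day 11 and 204.05 ± 100.5 in flox day 11 (SD, n = 3 or 4). Averaged over stages its log2 fold change between cKO and flox was −0.68 ± 0.25 (SE, edgeR adjusted p = 0.55). Defining genes of the glomerulus were abundant: 12 podocyte genes summed to group means of 5344 to 8498 CPM and 8 glomerular endothelial genes to 4099 to 5912 CPM.

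The 31 proximal tubule genes together took 0.116% to 1.02% of the reads of a library. Their summed level averaged 4628 ± 1776 CPM in cKO PBS and 4302 ± 1210 CPM in flox PBS libraries (SD, n = 3 each). On day 4 it averaged 5970 ± 2965 CPM in cKO (n = 4) and 5875 ± 2472 CPM in flox (n = 3), and on day 11 it averaged 2792 ± 740 CPM in cKO and 3083 ± 1687 CPM in flox (n = 4 each). The 4 cKO day 11 libraries held 2835, 2163, 2352 and 3818 CPM, against 2723, 4921 and 6239 CPM in cKO PBS. The 4 flox day 11 libraries held 4363, 4673, 1291 and 2006 CPM, against 3323, 5655 and 3930 CPM in flox PBS. Day 4 libraries spread most, with 4250, 6832, 9739 and 3061 CPM in cKO and 6524, 7958 and 3144 CPM in flox. The means were thus ordered day 4, PBS, day 11 in both genotypes, but every pair of neighbouring groups in that order overlapped. Set against the 12 podocyte genes, the ratio of the sums was 0.550 ± 0.227 in cKO PBS and 0.588 ± 0.242 in flox PBS, 0.949 ± 0.750 in cKO day 4 and 0.912 ± 0.431 in flox day 4, and 0.572 ± 0.275 in cKO day 11 and 0.492 ± 0.251 in flox day 11, so that day 4 kept the highest mean while cKO day 11 was no lower than cKO PBS. The podocyte sum itself was lower on day 11, at 5344 ± 1640 CPM in cKO and 6138 ± 1365 CPM in flox, against 8498 ± 299 CPM in cKO PBS and 7566 ± 1061 CPM in flox PBS. In bulk libraries such as these, fewer tubule cells in the cut tissue and less of these RNAs per cell cannot be told apart.

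**Figure D1:**
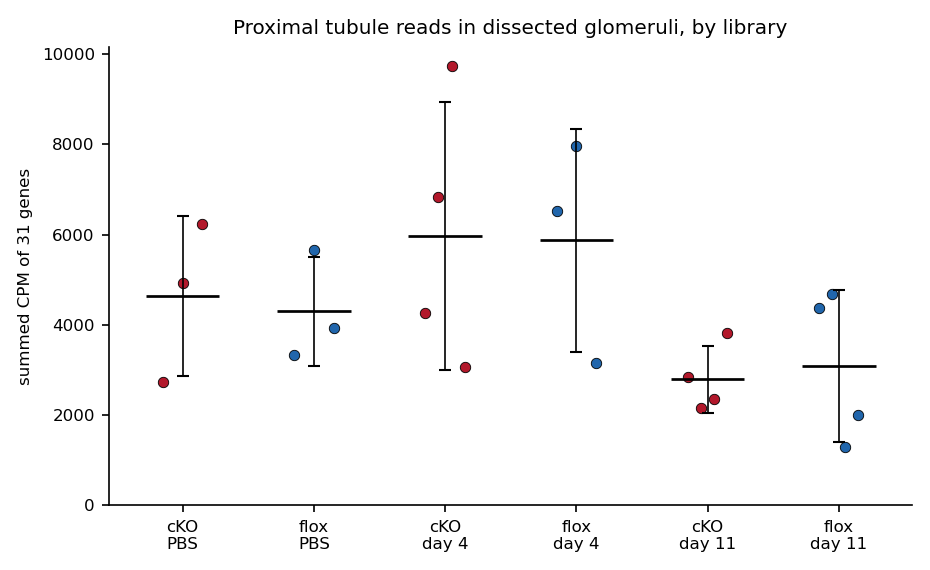
Summed CPM of the 31 proximal tubule genes (vertical axis, CPM) in each library (points) by group, with cKO in red and flox in blue; bars are means and whiskers 1 SD. The day 4 means, 5970 CPM in cKO and 5875 CPM in flox, are the highest of their genotype and the day 11 means, 2792 and 3083 CPM, the lowest, and the libraries of all groups overlap.

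A few abundant genes carried the sum. By CPM the order was led by Slc34a1 (mean over 21 libraries 661 CPM), Kap (471), Slc4a4 (461), Miox (383) and Acsm2 (298), and the lowest were Cubn (14.0) and Cyp2e1 (4.57). In the deposited TPM, which divide by transcript length although these libraries count 3' ends, Miox led with a mean of 1290 TPM, followed by Kap (531), Acsm2 (329) and Slc34a1 (305), while the long transcripts of Lrp2 (7.69) and Cubn (0.862) stood near the bottom. The spread between mice was wide within a gene: Slc4a4 and Lrp2 differed by 5.30-fold and 5.85-fold between their lowest and highest library, Kap by 177.4-fold and Napsa by 167-fold. The genes did not keep the same order in every library. Replicate 3 of cKO day 4 held the highest value of 8 genes and replicate 2 of that group of 7, whereas replicate 3 of flox day 11 was among the 3 lowest libraries for 18 of the 31 genes and above the gene's own median for 1.

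The libraries at both ends also differed in other measures. Replicate 3 of cKO day 4, with the highest sum, had the fewest genes detected (7871) and the highest mitochondrial share of reads (9.64%). Replicate 3 of flox day 11, with the lowest sum, had the lowest mitochondrial share (2.32%), and 30.1% of its reads fell on CT010467.1, a ribosomal RNA gene. The highest share of that gene, 39.5%, was in replicate 4 of cKO day 11, whose sum, 3818 CPM, was the highest of its group. That library also had the lowest TMM factor, 0.751. As a share of reads its proximal tubule genes took 0.287%, against 0.294% in replicate 1 of cKO day 11. The share of CT010467.1 was 22.2% to 39.5% in cKO day 11, against an overlapping 17.3% to 25.4% in cKO PBS. In flox that share was 15.4% to 30.1% on day 11, against 21.9% to 22.9% in PBS. In cKO day 11 the mitochondrial share was 3.51% to 4.55%, against 5.21% to 7.37% in cKO PBS. In flox the groups overlapped, at 2.32% to 7.21% on day 11 against 5.06% to 5.84% in PBS. The part of these measures in the results was not tested.

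**Figure D2:**
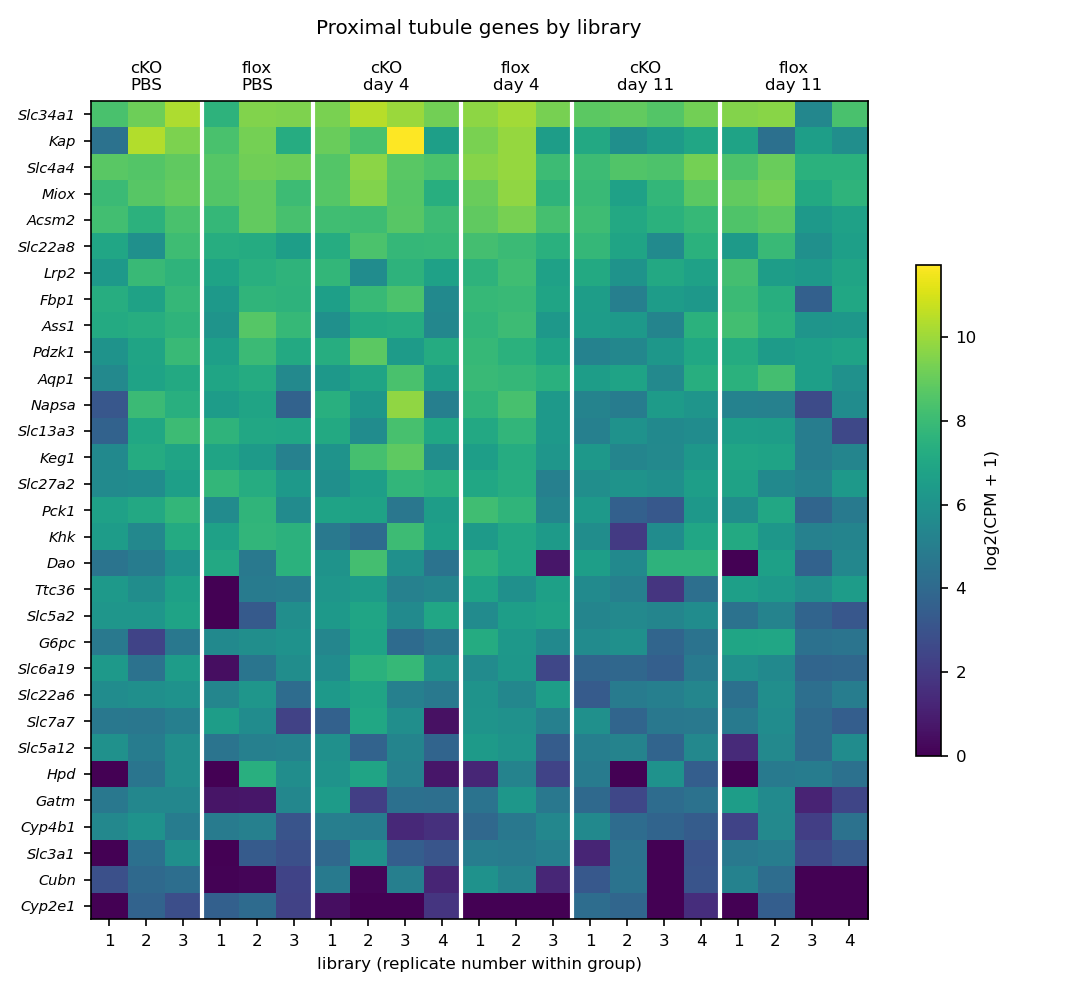
Level of each of the 31 genes (rows, ordered by mean CPM from top to bottom) in each of the 21 libraries (columns, by group and replicate number); colour is log2(CPM + 1). Replicate 3 of flox day 11 is dark over most rows, and Kap reaches its maximum, 3415 CPM, in replicate 3 of cKO day 4.

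Promoter windows, 250 bases before to 50 bases after the start site, were held for 27 of the 31 genes in RefSeq (GRCm38.p6); Napsa, Ttc36, Slc5a2 and Slc5a12 had none. They were searched for short cores of the motifs of HNF1 and HNF4, transcription factors known to drive proximal tubule genes. The HNF1 core (GTTAAT, read as ATTAAC on the other strand) was present for 10 of the 27 genes (37.0%), against 8.24% of all genes with a window. The HNF4 core (CAAAGT, or ACTTTG) was present for 8 of 27 (29.6%), against 16.1% of all genes. The cores share letters at their ends, so matches to both may overlap. The most abundant genes with an HNF1 core are shown with the core in capitals: Slc34a1 at chr13:55399398-55399697, with cores starting 89 and 61 bases before the start site, Miox at chr15:89334223-89334522, with 1 core at 142 bases before it, and Acsm2 at chr7:119554090-119554389, with 1 core at 166 bases before it, all on the plus strand. A match describes the letters and is not evidence of binding.
Slc34a1: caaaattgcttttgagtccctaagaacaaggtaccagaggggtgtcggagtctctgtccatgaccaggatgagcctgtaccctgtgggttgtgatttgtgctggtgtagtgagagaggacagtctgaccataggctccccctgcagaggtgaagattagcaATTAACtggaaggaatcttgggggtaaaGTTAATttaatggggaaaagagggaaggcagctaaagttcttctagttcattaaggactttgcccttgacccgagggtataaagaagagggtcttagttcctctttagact
Miox: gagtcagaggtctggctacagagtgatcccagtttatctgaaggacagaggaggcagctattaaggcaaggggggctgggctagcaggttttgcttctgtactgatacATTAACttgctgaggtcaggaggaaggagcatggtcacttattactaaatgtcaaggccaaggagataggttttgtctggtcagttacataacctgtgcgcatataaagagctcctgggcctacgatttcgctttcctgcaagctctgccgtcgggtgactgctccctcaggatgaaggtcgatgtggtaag
Acsm2: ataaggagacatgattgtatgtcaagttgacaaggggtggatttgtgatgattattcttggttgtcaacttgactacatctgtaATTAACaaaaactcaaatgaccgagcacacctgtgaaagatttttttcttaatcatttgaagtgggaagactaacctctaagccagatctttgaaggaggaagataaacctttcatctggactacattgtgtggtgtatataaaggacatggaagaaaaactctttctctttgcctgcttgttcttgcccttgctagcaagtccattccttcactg

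On day 11 most of the 31 genes were lower than in PBS mice, but none passed the test alone. Averaged over genotypes, 26 of 31 had a log2 fold change below 0 with a median of −0.43, whereas 47.0% of the 13898 tested genes were below 0 and their median was 0.07. In cKO 25 genes were below 0 (median −0.69, against 51.4% of all genes below 0 and a median of −0.03), and in flox 24 were (median −0.33, against 45.2% and 0.09). The direction was lower in both genotypes for 20 genes and higher in both for 2. The count in flox rested on 1 mouse: it was 15 without replicate 3 of flox day 11. By edgeR, 0 of the 31 genes were called at an adjusted p under 0.05 in cKO (0.0504% of all genes called), in flox (0.0%) or on average (0.122%). At an unadjusted p under 0.05 in either direction there were 4 genes on average (9.12% of all genes), 2 in cKO (6.02%) and 0 in flox (8.25%), each of them lower. DESeq2 called 1 gene on average (Kap) and 0 within either genotype, and voom called 0 in each.

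On day 4 most genes were above 0 by edgeR, but in cKO voom gave the opposite balance, with 20 of 31 below 0. By voom the median of all genes in cKO was itself −0.58, against −0.09 by edgeR. Averaged over genotypes, 24 of 31 genes were above 0 with a median of 0.40 (50.5% of all genes above 0, median 0.01). In flox 24 were above 0 (median 0.52, against 52.4% and 0.08) and in cKO 22 were (median 0.20, against 45.4% and −0.09), and 17 were above 0 in both genotypes. The count below 0 in cKO was 9 (53.1% of all genes), and it was 15 without replicate 2 and 15 without replicate 3 of cKO day 4; on average it was 7 (49.3% of all genes), as in flox (45.1%), and 4 without replicate 2 of flox PBS. By edgeR 0 genes were called in cKO (0.0% of all genes called), in flox (0.0%) or on average (0.0216%), and at an unadjusted p under 0.05 there was 1 gene, Cyp2e1, lower, in flox (7.93% of all genes in either direction) and on average (9.28%), and 0 in cKO (8.16%). DESeq2 called that gene in flox and on average and none in cKO, and voom called 0. The day 4 and day 11 comparisons share their PBS mice.

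**Figure D3:**
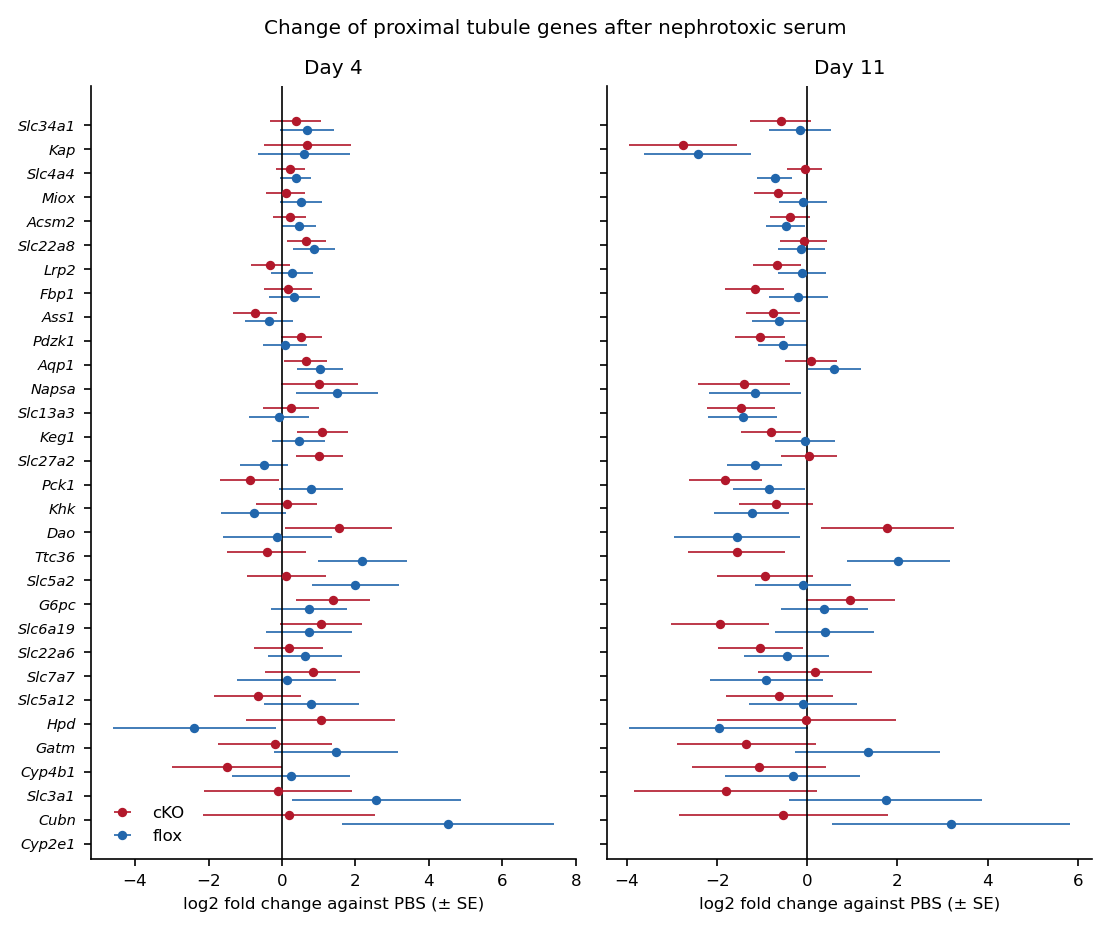
Log2 fold change against PBS of the same genotype (horizontal axis, point with SE) for each gene on day 4 (left) and day 11 (right), cKO in red above flox in blue, genes ordered by mean CPM. Points lie mostly right of 0 on day 4 (22 genes in cKO, 24 in flox) and mostly left of it on day 11 (25 and 24 below 0); Cyp2e1 has no point because a group had no reads, and its direction is counted.

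Among the 12 genes of solute and water transport, 11 were below 0 on day 11 averaged over genotypes (median −0.38) and 12 were above 0 on day 4 (median 0.51), with 0 called by edgeR at either time. Slc34a1 encodes the sodium phosphate cotransporter of the brush border. Slc34a1 had 329, 575 and 1236 CPM in cKO PBS and 194, 724 and 701 CPM in flox PBS. It had 656, 1436, 991 and 609 CPM in cKO day 4 and 851, 1110 and 637 CPM in flox day 4. By day 11 it had 444, 478, 381 and 601 CPM in cKO and 751, 816, 41.6 and 326 CPM in flox. Replicate 3 of flox day 11 was far under the rest. Each nephritis group overlapped PBS of its genotype, and cKO overlapped flox at every stage.

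Slc4a4 encodes the bicarbonate carrier at the blood side of the cell. Slc4a4 had 420.4, 391 and 462 CPM in cKO PBS and 405, 591 and 554 CPM in flox PBS. Slc4a4 then had 386, 830.0, 419.9 and 345 CPM in cKO day 4 and 790.5, 948 and 267 CPM in flox day 4. On day 11 Slc4a4 had 266, 379, 349.8 and 632 CPM in cKO and 356, 536, 178.9 and 180.1 CPM in flox. It was among the steadiest of the 31, with replicate 2 of cKO day 4 high and replicate 3 of flox day 4 low within their groups. Slc22a8 and Slc22a6 are organic anion transporters that take up drugs and metabolites for secretion, and they are neighbours on chromosome 19 (8591254 to 8611835 and 8618039 to 8628299, GRCm38). Slc22a8 had 123, 58.3 and 269 CPM in cKO PBS and 159, 148 and 95.6 CPM in flox PBS. It had 152, 338, 225 and 235 CPM in cKO day 4 and 301, 259 and 174 CPM in flox day 4, and 221, 116, 48.2 and 181.9 CPM in cKO day 11 and 83.8, 249, 57.8 and 98.9 CPM in flox day 11. All 3 flox day 4 libraries were above all 3 flox PBS libraries, as held for 4 of the 31 genes (Slc22a8, Aqp1, Slc3a1 and Ttc36) against 6.81% of all genes. Slc22a8 was at 0.77 ± 0.39 (log2 fold change ± SE, edgeR adjusted p = 0.55) on day 4 averaged over genotypes. Its neighbour Slc22a6 had 9.23 to 40.5 CPM in cKO day 11, below all 3 cKO PBS libraries (51.7 to 62.1 CPM).

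Slc13a3, a carrier of dicarboxylates such as succinate and citrate-cycle intermediates, had the second smallest p of the 31 on day 11 averaged over genotypes. Slc13a3 had 11.9, 125 and 265 CPM in cKO PBS and 196, 132 and 122 CPM in flox PBS. Slc13a3 then had 139, 51.7, 320.1 and 127 CPM in cKO day 4 and 134, 211 and 81.1 CPM in flox day 4. On day 11 Slc13a3 had 33.7, 61.7, 46.2 and 51.2 CPM in cKO and 94.5, 92.0, 30.5 and 4.78 CPM in flox. The flox day 11 libraries were all below flox PBS, one of 2 genes (with Kap) for which this held, against 2.53% of all genes, while in cKO replicate 1 of PBS lay below all day 11 libraries. Averaged over genotypes it was at −1.45 ± 0.54 (SE, 95% interval −2.55 to −0.36, unadjusted p = 0.011, edgeR adjusted p = 0.34).

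Slc5a2 encodes the main glucose carrier of the early tubule, the target of gliflozin drugs. Slc5a2 had 71.3, 70.7 and 113 CPM in cKO PBS and 0, 8.88 and 54.6 CPM in flox PBS. Slc5a2 then had 80.9, 120.0, 47.5 and 121 CPM in cKO day 4 and 49.8, 96.1 and 107 CPM in flox day 4. On day 11 Slc5a2 had 39.8, 45.2, 39.5 and 51.7 CPM in cKO and 20.3, 37.5, 13.0 and 8.22 CPM in flox. It was higher in cKO than in flox without overlap in PBS and on day 11, and the cKO day 11 libraries were below those of cKO PBS. The difference between cKO and flox in PBS was 2.00 ± 1.19 on the log2 scale (SE, edgeR adjusted p = 0.80), and it was 4.24 without replicate 3 and 1.39 without replicate 1 of flox PBS, and 4.37 by voom. Among the rest, Aqp1, the water channel, had group means of 98.1 to 214 CPM, Pdzk1, a scaffold of brush border transporters, 69.9 to 206 CPM, and Slc6a19, a carrier of neutral amino acids, 16.3 to 129.6 CPM. Slc3a1 and Slc7a7, subunits of amino acid exchangers, ran from 5.20 to 30.9 CPM and from 26.0 to 53.6 CPM, and the lactate carrier Slc5a12 from 28.5 to 53.2 CPM.

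Of the 5 genes of glucose, fructose and inositol metabolism, 4 were below 0 on day 11 averaged over genotypes (median −0.68). Of these, 1 was at an unadjusted p under 0.05 (9.12% of all genes in either direction). Between cKO and flox averaged over stages 5 were below 0 (median −0.34), 1 at an unadjusted p under 0.05 (6.62% of all genes). Miox encodes the oxygenase that starts the breakdown of inositol, a step nearly confined to the kidney. Miox had 259, 416 and 505 CPM in cKO PBS and 391, 480.4 and 260.4 CPM in flox PBS. Miox then had 399, 727, 402 and 163 CPM in cKO day 4 and 536, 895 and 196.6 CPM in flox day 4. On day 11 Miox had 248, 106, 219 and 435 CPM in cKO and 479, 601, 137 and 196 CPM in flox, and its groups overlapped throughout.

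Fbp1, Pck1 and G6pc are enzymes of glucose synthesis, Pck1 at its entry and G6pc at its last step. Fbp1 had 157, 109 and 222 CPM in cKO PBS and 77.0, 205 and 193 CPM in flox PBS. Fbp1 then had 96.3, 242, 343 and 47.1 CPM in cKO day 4 and 235, 248 and 115 CPM in flox day 4. On day 11 Fbp1 had 91.6, 32.5, 88.5 and 76.7 CPM in cKO and 252, 163, 11.2 and 126 CPM in flox. All 4 cKO day 11 libraries were below the cKO PBS libraries, and on day 11 cKO and flox overlapped (log2 fold change −0.93 ± 0.61, SE, edgeR adjusted p = 1.0). Pck1 had 106, 134 and 218 CPM in cKO PBS and 50.3, 203 and 50.4 CPM in flox PBS. Pck1 then had 111, 107.5, 24.2 and 90.3 CPM in cKO day 4 and 279, 204.02 and 40.1 CPM in flox day 4. On day 11 Pck1 had 78.2, 11.1, 8.49 and 75.2 CPM in cKO and 53.5, 131, 13.0 and 27.7 CPM in flox. Here too the cKO day 11 libraries did not overlap cKO PBS, and the flox groups did. Pck1 was at −1.82 ± 0.81 in cKO on day 11 (SE, 95% interval −3.47 to −0.17, unadjusted p = 0.032, edgeR adjusted p = 0.81), at −2.48 by voom and at −2.63 with the replicate block. A group of 6 genes in all, Gatm, Pck1, Slc5a2, Ttc36, Fbp1 and Slc22a6, were lower in every cKO day 11 library than in every cKO PBS library, against 4.03% of all genes.

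G6pc was the gene of the 31 with the smallest p between genotypes averaged over stages. G6pc had 26.2, 4.10 and 25.1 CPM in cKO PBS and 46.8, 54.4 and 61.7 CPM in flox PBS. G6pc then had 40.8, 112, 16.0 and 23.3 CPM in cKO day 4 and 150.1, 75.7 and 46.9 CPM in flox day 4. On day 11 G6pc had 50.1, 58.1, 13.4 and 21.4 CPM in cKO and 118, 122, 20.1 and 22.1 CPM in flox. The genotypes did not overlap in PBS and overlapped on both days of nephritis. Averaged over stages it was at −1.15 ± 0.56 (SE, unadjusted p = 0.049, edgeR adjusted p = 0.75). Khk, which phosphorylates fructose, had group means of 57.6 to 167.7 CPM, the highest in flox PBS.

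**Figure D4:**
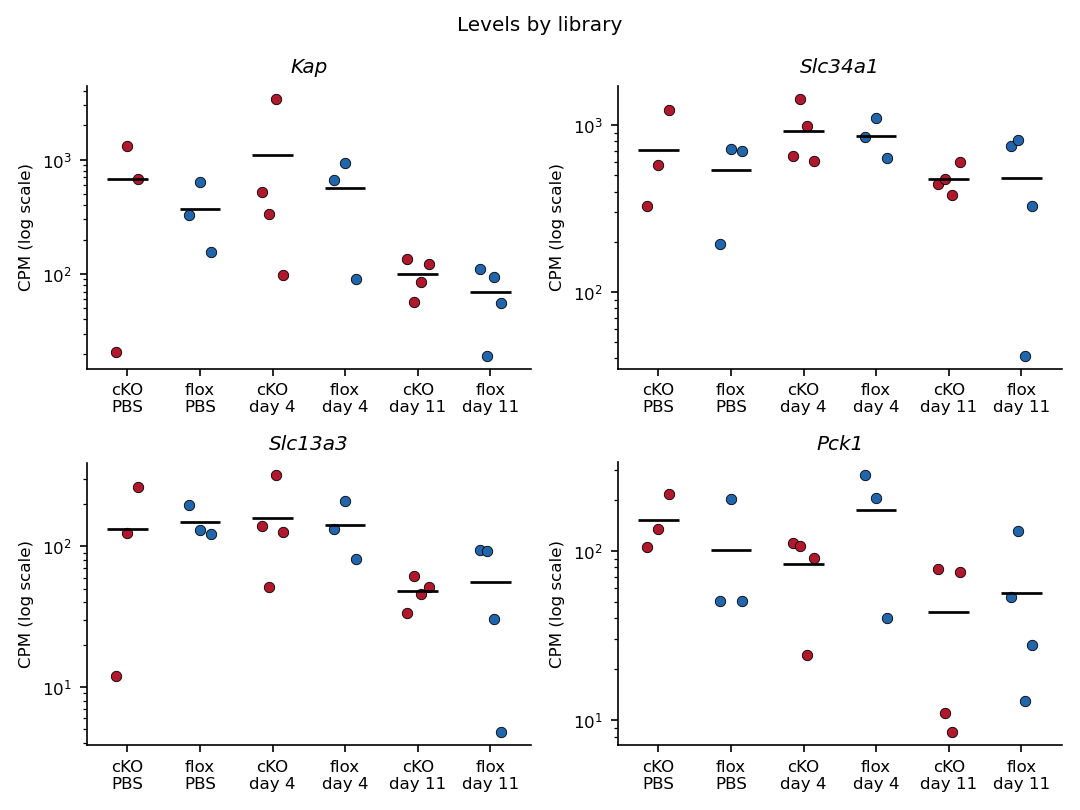
CPM (log scale) of Kap, Slc34a1, Slc13a3 and Pck1 in each library (points, cKO in red, flox in blue) by group, with the group mean as a bar. The day 11 libraries of Kap lie at or below 135 CPM in both genotypes, and 1 cKO PBS library lies within their range, at 20.6 CPM; Slc34a1 overlaps between nephritis and PBS in each genotype.

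Of the 3 abundant products outside these classes, Kap, the kidney androgen-regulated protein, showed the widest range. Kap had 20.6, 1331 and 679.8 CPM in cKO PBS and 331, 633 and 154.8 CPM in flox PBS. Kap then had 527, 333, 3415 and 97.3 CPM in cKO day 4 and 658, 937 and 90.7 CPM in flox day 4. On day 11 Kap had 135, 56.6, 84.7 and 123 CPM in cKO and 110.0, 19.3, 93.2 and 55.1 CPM in flox. All flox day 11 libraries were below flox PBS, and in cKO all were below replicates 2 and 3 of PBS but above replicate 1. Kap was at −2.76 ± 1.20 in cKO (SE, edgeR adjusted p = 0.81) and −2.43 ± 1.19 in flox (adjusted p = 0.58), and at −2.59 ± 0.84 averaged over genotypes (95% interval −4.39 to −0.80, unadjusted p = 0.0075, edgeR adjusted p = 0.34). DESeq2 gave the average an adjusted p of 0.012, and over all alternatives it ran from 0.012 to 0.86. Without replicate 2 of cKO PBS the value in cKO was −1.82, and without replicate 2 of flox PBS the value in flox was −1.81. Kap took 3.55% ± 0.896 of the reads of the 31 genes in cKO day 11 and 3.23% ± 2.86 in flox day 11, against 12.9% ± 13.3 in cKO PBS and 8.36% ± 3.88 in flox PBS (SD). Without Kap the summed level was 2692 ± 714 CPM in cKO day 11 and 3014 ± 1698 CPM in flox day 11, against 3950 ± 1462 CPM in cKO PBS and 3930 ± 1024 CPM in flox PBS, so the lower sum on day 11 was not carried by Kap alone. Napsa, an aspartic protease, had group means of 144 CPM in cKO PBS and 71.4 CPM in flox PBS, 291 CPM in cKO day 4 and 201 CPM in flox day 4, and 54.8 CPM in cKO day 11 and 32.01 CPM in flox day 11.

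Ttc36, a tetratricopeptide repeat protein, was the 1 gene whose day 11 and PBS libraries separated in opposite directions in the genotypes. Ttc36 had 77.2, 53.4 and 99.4 CPM in cKO PBS and 0, 28.9 and 30.5 CPM in flox PBS. Ttc36 then had 70.0, 85.6, 34.6 and 39.7 CPM in cKO day 4 and 112, 58.7 and 99.7 CPM in flox day 4. On day 11 Ttc36 had 48.7, 33.8, 2.46 and 18.5 CPM in cKO and 99.02, 78.9, 54.4 and 88.9 CPM in flox. All cKO day 11 libraries were below cKO PBS and below flox day 11, and all flox day 11 libraries were above flox PBS, as no other gene of the 31 was (3.86% of all genes). The difference of the day 11 fold changes between genotypes was −3.59 ± 1.57 on the log2 scale (SE, unadjusted p = 0.029, edgeR adjusted p = 0.67), and it was −2.99 without replicate 1 of flox PBS and −6.28 by voom. On day 4 in flox it was at 2.19 ± 1.20 (edgeR adjusted p = 0.61, at 1.58 without replicate 1 of flox PBS and at 4.15 by voom) and between cKO and flox on day 11 at −1.63 ± 1.02 (adjusted p = 1.0, and −2.32 by voom).

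The 5 genes of fatty acid and drug metabolism were all below 0 on day 11 averaged over genotypes (median −0.56), and 0 were called by edgeR. Acsm2 encodes an acyl-CoA synthetase for medium-chain acids. Acsm2 had 287, 185 and 329 CPM in cKO PBS and 226, 480.2 and 318 CPM in flox PBS. Acsm2 then had 278, 275, 411 and 267 CPM in cKO day 4 and 465, 639.7 and 308 CPM in flox day 4. On day 11 Acsm2 had 275, 136, 178 and 229 CPM in cKO and 362, 435, 77.3 and 105 CPM in flox. Its flox day 11 libraries lay in pairs, replicates 1 and 2 high and replicates 3 and 4 low. Many of the 31 genes shared this pattern, among them Slc34a1, Miox, G6pc, Slc4a4, Ass1 and Keg1, though not all did. The summed level of the 31 genes showed it too, with 4363, 4673, 1291 and 2006 CPM. Slc27a2, a long-chain acyl-CoA synthetase and fatty acid transporter, had 48.1, 52.1 and 97.1 CPM in cKO PBS and 216, 155.1 and 80.8 CPM in flox PBS. Slc27a2 then had 55.8, 94.9, 211 and 172 CPM in cKO day 4 and 126, 160.2 and 33.4 CPM in flox day 4. On day 11 Slc27a2 had 54.6, 65.3, 57.2 and 93.4 CPM in cKO and 107.97, 46.3, 36.1 and 78.3 CPM in flox. It was at −1.17 ± 0.61 in flox on day 11 (SE, edgeR adjusted p = 0.58), at 1.02 ± 0.63 in cKO on day 4 (adjusted p = 0.79) and at −1.19 ± 0.66 between cKO and flox in PBS (adjusted p = 0.75), and the genotypes' day 4 fold changes differed by 1.52 ± 0.91 (adjusted p = 0.79). Its groups overlapped in each of these comparisons.

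Keg1, a relative of the glycine N-acyltransferases, had 46.5, 147 and 115 CPM in cKO PBS and 115, 82.4 and 34.6 CPM in flox PBS. Keg1 then had 63.5, 311, 449 and 54.4 CPM in cKO day 4 and 93.9, 154 and 71.6 CPM in flox day 4. On day 11 Keg1 had 76.2, 39.3, 45.3 and 73.4 CPM in cKO and 119, 109.9, 30.9 and 39.4 CPM in flox. In cKO day 4, replicates 2 and 3 were high and replicates 1 and 4 were low. Keg1 was at 1.10 ± 0.69 in cKO on day 4 against PBS (SE, edgeR adjusted p = 0.81) and at 1.04 ± 0.69 against flox day 4 (adjusted p = 0.91), and at 0.48 and 0.43 without replicate 3 of cKO day 4. By voom both turned round, to −0.21 and −0.19, where the voom medians of all genes were −0.58 and −0.39. Cyp2e1, a cytochrome P450 of ethanol and small molecule oxidation, had 0 reads in 10 of 21 libraries, 8 to 56 reads in 3 and 72 to 307 reads in 8. Cyp2e1 had 0, 12.2 and 6.17 CPM in cKO PBS and 11.3, 16.3 and 4.00 CPM in flox PBS. Cyp2e1 then had 0.372, 0, 0 and 2.49 CPM in cKO day 4 and 0 CPM in all 3 flox day 4 libraries. On day 11 Cyp2e1 had 17.2, 13.8, 0 and 1.86 CPM in cKO and 0, 10.3, 0 and 0 CPM in flox. Both genotypes had their lowest mean on day 4. In flox day 4 the mean of Cyp2e1 was at least 219-fold below that of flox PBS, by a floor of 3 counts over the group. That floor covers counting error only and not the spread between mice. The 95% interval of the log2 fold change ran from −19.7 to −1.45 (edgeR adjusted p = 0.59). Against cKO day 4, whose level rested on 8 and 56 reads in 2 of its 4 libraries, the adjusted p was 0.72. Averaged over genotypes its day 4 test had an edgeR adjusted p of 0.40, and the difference between the genotypes' day 4 fold changes an adjusted p of 0.75. DESeq2 called Cyp2e1 in these comparisons and edgeR and voom did not. Cyp2e1 was the 1 gene of the 31 with all flox day 4 libraries below flox PBS, against 3.87% of all genes. Cyp4b1, another cytochrome P450, had group means of 16.1 to 45.1 CPM, the highest in cKO PBS.

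Of the 4 genes of amino acid metabolism, 3 were below 0 on day 11 averaged over genotypes (median −0.35) and 2 on day 4, with 0 called by edgeR. Ass1 makes argininosuccinate on the way to arginine. Ass1 had 142, 159 and 195 CPM in cKO PBS and 65.4, 402 and 229 CPM in flox PBS. Ass1 then had 58.0, 145, 152.6 and 42.7 CPM in cKO day 4 and 209.9, 259 and 75.0 CPM in flox day 4. On day 11 Ass1 had 89.2, 78.5, 38.6 and 181.99 CPM in cKO and 286, 178, 68.6 and 72.2 CPM in flox. It was at −0.66 ± 0.35 between cKO and flox averaged over stages (SE, edgeR adjusted p = 0.82), with overlap at every stage. Dao, which oxidises D-amino acids, had 22.1, 29.8 and 61.3 CPM in cKO PBS and 133, 25.7 and 181 CPM in flox PBS. Dao then had 63.8, 295, 59.1 and 21.5 CPM in cKO day 4 and 188, 124 and 0.644 CPM in flox day 4. On day 11 Dao had 93.2, 46.0, 189 and 189 CPM in cKO and 0, 99.6, 11.8 and 42.1 CPM in flox. Its mean was highest in cKO day 11, where no other gene of the 31 had its highest mean. The difference of its day 11 fold changes between genotypes was 3.34 ± 2.04 (SE, edgeR adjusted p = 0.88), and it was 4.43 without replicate 2 of flox day 11. Gatm, of creatine synthesis, had group means of 14.3 to 40.0 CPM and Hpd, of tyrosine breakdown, of 14.1 to 74.1 CPM.

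The 2 endocytosis receptors, Lrp2 (megalin) and Cubn (cubilin), take up filtered protein. Lrp2 had 78.8, 250.9 and 199.6 CPM in cKO PBS and 112, 167 and 198 CPM in flox PBS. Lrp2 then had 221, 51.7, 191 and 103 CPM in cKO day 4 and 192, 282 and 105 CPM in flox day 4. On day 11 Lrp2 had 139, 64.4, 136 and 106 CPM in cKO and 302, 92.4, 77.4 and 113 CPM in flox, with overlap between all groups. Cubn had 6.30, 15.4 and 18.2 CPM in cKO PBS, against 0.0525, 0.110 and 4.16 CPM in flox PBS, and 0 reads in 3 libraries of day 11. It was among 3 genes (with Slc5a2 and Ttc36) that were higher in every cKO PBS than in every flox PBS library, against 7.27% of all genes, and G6pc was the 1 that was lower, against 2.96%.

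Between genotypes the 31 genes had no common direction. In cKO against flox, 13 were below 0 in PBS (45.0% of all genes), 18 on day 4 (52.2%) and 19 on day 11 (51.1%), and 17 averaged over stages (49.3%) with a median of −0.06. By edgeR 0 were called in PBS, on day 4 or on day 11 (each 0.0% of all genes called) or on average (0.0072%). At an unadjusted p under 0.05 in either direction there were 0 in PBS (6.02% of all genes), 0 on day 4 (7.42%) and 0 on day 11 (5.86%), and 1, G6pc, on average (6.62%). DESeq2 called 1 gene on day 4 and 1 on average, Cyp2e1 in both, and voom called 0. On day 11 Slc5a2 was higher and Ttc36 lower in every cKO than in every flox library (1.23% and 1.29% of all genes). The difference of the fold changes between genotypes was below 0 for 19 genes on day 4 (56.5% of all genes) and 21 on day 11 (55.2%), with 0 called by edgeR (0.0% of all genes called on either day). At an unadjusted p under 0.05 there were 0 on day 4 (7.74% of all genes) and 1, Ttc36, on day 11 (6.94%). DESeq2 called 1 (Cyp2e1) on day 4 and 0 on day 11, and voom called 0. The median of all genes was itself −0.28 on day 4 and −0.20 on day 11 in this comparison, and the median of the 31 was −0.26 and −0.49.

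Genes of other cells were read beside these. A further 71 genes were listed for the proximal tubule, Dab2 and Mme among them. Whether tubule cells alone made these RNAs in the dissected tissue was not tested. The 71 genes summed to 2919 ± 718 CPM in cKO day 11 and 3057 ± 1418 CPM in flox day 11, against 3709 ± 1113 CPM in cKO PBS and 3560 ± 512 CPM in flox PBS. On day 11 averaged over genotypes 44 of their 63 tested members were below 0 (median −0.49), and on day 4 42 of 63 were above 0 (median 0.51), with 0 called by edgeR at either time. Other tubule segments were read too. The 8 thick ascending limb genes, led by Umod and Slc12a1, summed to 647 ± 466 CPM in cKO day 11 and 859 ± 223 CPM in flox day 11. In PBS they summed to 1672 ± 390 CPM in cKO and 1729 ± 552 CPM in flox. On average 7 of the 8 were below 0, 3 of them at an unadjusted p under 0.05 (9.12% of all genes in either direction) and 0 called. The 7 distal convoluted tubule genes, led by Klk1 and Wnk1, summed to 709 ± 252 CPM in cKO day 11 and 1381 ± 405 CPM in flox day 11. In PBS they summed to 1468 ± 344 CPM in cKO and 1694 ± 539 CPM in flox. Wnk1 alone held 356 CPM in cKO day 11 and 488 CPM in flox day 11, against 564 CPM in cKO PBS and 595 CPM in flox PBS. On average 6 of the 7 genes were below 0, 5 at an unadjusted p under 0.05 (9.12% of all genes in either direction) and 0 called. The 7 genes of collecting duct principal cells, led by Aqp2, summed to 70.8 ± 44.1 CPM in cKO day 11 and 151 ± 106 CPM in flox day 11, against 70.3 ± 36.9 CPM in cKO PBS and 144 ± 23 CPM in flox PBS. The 6 genes of its intercalated cells, led by Atp6v1g3, summed to 44.2 ± 12.1 CPM in cKO day 11 and 53.5 ± 30.7 CPM in flox day 11. In PBS they summed to 75.6 ± 33.5 CPM in cKO and 161.5 ± 61.2 CPM in flox. On average 4 of the 6 were below 0 and 0 called. In cKO 5 of 6 were below 0 (median −0.76), whereas in flox 5 of 6 were above 0 (median 1.32). Atp6v1g3 alone had 30.9 CPM in flox day 11, against 152 CPM in flox PBS. The 12 podocyte genes had 11 below 0 (median −0.50), and 1, Thsd7a, was called lower (log2 fold change −1.80 ± 0.20, SE, edgeR adjusted p = 6.8e-06).

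The 12 tubule injury genes went the other way. They summed to 1194 ± 189 CPM in cKO day 11 and 783 ± 208 CPM in flox day 11, against 467.5 ± 87.8 CPM in cKO PBS and 367 ± 63 CPM in flox PBS, and 12 of 12 were above 0 averaged over genotypes (median 1.48). Clu, a stress-response chaperone, was called higher (1.51 ± 0.32, SE, edgeR adjusted p = 0.035), with 458 CPM in cKO day 11 and 307 CPM in flox day 11, against 154 and 113 CPM in cKO PBS and flox PBS. Several of these genes, such as Vcam1 and Cd44, are also made by parietal or immune cells. The part of tubule injury, of glomerular cells and of the amount of tubule cut in the values of the 31 genes was not tested.

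**Figure D5:**
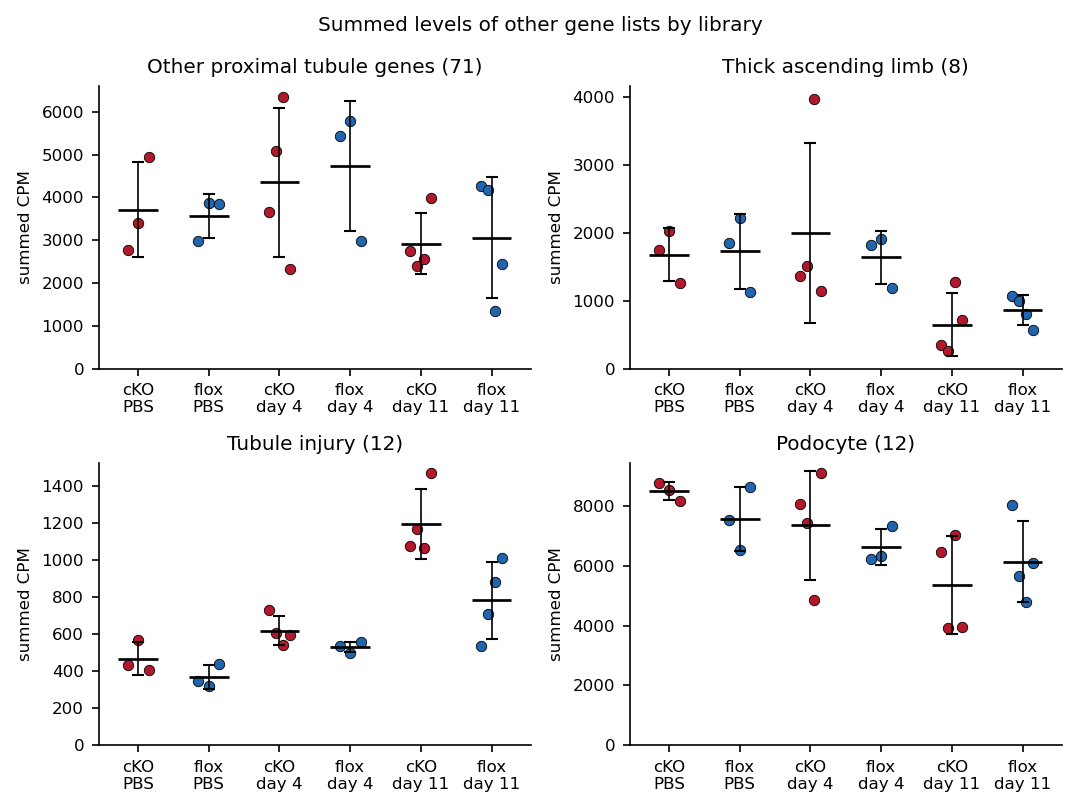
Summed CPM per library (points; bars are means, whiskers 1 SD) of 71 other proximal tubule genes, 8 thick ascending limb genes, 12 tubule injury genes and 12 podocyte genes, by group. On day 11 the tubule injury sum is 1194 CPM in cKO and 783 CPM in flox, against 467.5 and 367 CPM in PBS, while the thick ascending limb sum is 647 and 859 CPM, against 1672 and 1729 CPM.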

How the data were processed

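Per the labels' protocols, RNA of laser-microdissected glomeruli was made into QuantSeq 3' FWD libraries. The mm10 build and the tools DRAGEN, Picard, fastp and FastQC are named, per the submitters' processing notes. Not given in the sources used here are their versions and roles, the strand setting and the treatment of duplicates, molecular identifiers and shared reads. The authors deposited estimated counts per gene, not normalized, and TPM, which were used to rank genes only. Of the count values above 0, 95.2% were whole within 0.005, and 0 pairs of libraries were identical. By identifier, 35513 of 35598 genes (99.8%) matched a symbol in GENCODE M21 (GRCm38).

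After rounding of the estimated counts, edgeR 4.0.16 (R 4.3.3) was used (filterByExpr at a minimum count of 10, TMM factors 0.751 to 1.12, robust quasi-likelihood test). All 21 libraries entered 1 model of 6 group means with 15 residual degrees of freedom, over 13898 genes and 12 comparisons. Adjusted p values are by Benjamini-Hochberg over all tested genes, and "called" means an adjusted p under 0.05. The common biological coefficient of variation was 1.66. The standard error was taken from the F statistic, as the size of the log2 fold change over the root of F. Each p measures the spread between these libraries, 1 per mouse. A fold against a group without reads uses a floor of 3 counts over the group, which covers counting error only.

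The members and gene lists were chosen with earlier results of these data known. Of the listed genes Tmem27 was not matched. Full values per library are given for the 8 members with the highest mean CPM and for those with a printed fold change, which are, in each comparison, the 2 members with the smallest unadjusted p. From the other lists genes among those of highest mean CPM were named (1 is not reported here), and Thsd7a was named after its value was seen. Alternatives were DESeq2 1.42.0, limma 3.58.1 voom with quality weights, median-ratio scaling, other count filters, models of the compared groups alone, a replicate block, removal of CT010467.1, removal of the library of fewest genes detected together with that of fewest reads, and each library left out. The procedure was tested on simulated data whose biological coefficient of variation was set below that of these data (1.66). How many true changes it would call at the spread of these data was not tested. Figures were drawn with matplotlib 3.10.9.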

Additional observations from a re-analysis of the deposited data

Results flagged for a closer look

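In groups of 4 libraries, 7 of 60 sets (18 genes with full values and 2 sums, each in the 3 groups of 4) had 1 library far from the other 3. For normally distributed values chance flags about 1 in 20 such sets. These CPM were not log-transformed, and genes of 1 library are not independent, so 7 of 60 cannot be set against that rate. Of the 7, 5 lay in cKO day 4. Replicate 3 of that group had 3415 CPM of Kap, against 97.3 to 527 CPM in the other 3 libraries, and 411 CPM of Acsm2, against 267 to 278 CPM. Replicate 2 had 830.0 CPM of Slc4a4, against 345 to 420 CPM, and 295 CPM of Dao, against 21.5 to 63.8 CPM. Replicate 4 had 2.49 CPM of Cyp2e1, against 0 to 0.372 CPM. In flox day 11, replicate 1 had 302 CPM of Lrp2, against 77.4 to 113 CPM, and replicate 2 had 10.3 CPM of Cyp2e1, against 0 in the other 3.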

How the results depend on the processing

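The number of the 31 genes called was 0 in all 12 comparisons by edgeR and under each alternative except DESeq2. DESeq2 called 1 in 6 of them: Kap on day 11 averaged over genotypes, and Cyp2e1 in flox day 4 against PBS, cKO against flox on day 4, cKO against flox averaged over stages, day 4 averaged over genotypes and the day 4 difference between genotypes. Over all genes the calls per comparison were 0 to 17 by edgeR, 495 to 1256 by DESeq2, 3 to 103 by voom, 0 to 39 without a filter, 0 to 28 in models of the compared groups, 0 to 37 without the library of fewest genes detected and that of fewest reads (replicate 3 of cKO day 4 and of cKO day 11, an alternative chosen with earlier results known) and 0 to 30 with each library left out. The genes below 0 in cKO day 4 against PBS numbered 9, and 20 by voom, where the median of all genes was −0.58. They numbered 15 without those 2 libraries and 8 to 15 with each library left out. With each library left out they numbered 15 to 24 in flox day 11 and 4 to 9 on day 4 averaged over genotypes; counting below 0 was chosen after seeing the data. Voom turned Keg1 to −0.21 in cKO day 4 against PBS, where the voom median of all genes was −0.58. Against flox day 4 voom gave −0.19 for Keg1 and a median of −0.39 for all genes. Removal of CT010467.1 also takes its reads out of the library size by which CPM are divided, in every library. Without it the summed level was 3552 CPM in cKO day 11, against 2792 CPM with it. In flox PBS it was 5532 CPM, against 4302 CPM. These 2 groups are named because their means moved by more than 1 SD. The cause of the other changes was not tested. Median-ratio scaling moved the median of all genes by −0.08 to 0.13. The replicate numbers did not pair the libraries: over 48 same-numbered pairs the correlation of deviations had a median of −0.003, and 0 of 21 libraries lay closest to their own number. With the replicate block 0 of the 31 genes were called in each comparison, and 0 to 10 of all genes. Cyp2e1 had 0 reads in the deepest library, with 24295712 reads. It also had 0 in thinner ones, among them those of 4550550, 12465774 and 13421591 reads, while the library of 11436085 reads had 16. The part of depth in its 0 reads was not tested.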

Other observations

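Lists of other cells gave these values on day 11, with 0 genes called by edgeR in each list averaged over genotypes. Genes of the last proximal segment, S3, led by Atp11a and Aadat, had 5 of 6 tested members below 0, and their 7 genes summed to 64.7 ± 42.0 CPM in cKO day 11 and 51.4 ± 11.1 CPM in flox day 11, against 88.4 ± 72.8 CPM in cKO PBS and 44.0 ± 12.3 CPM in flox PBS (SD). Proximal tubule transcription factors had 2 of 6 below 0, and their sum, carried by Maf, which other cells also make, was 469 ± 59.3 CPM in cKO day 11 and 449 ± 120 CPM in flox day 11, against 469 ± 121 CPM in cKO PBS and 555 ± 115 CPM in flox PBS. Hnf4a, the nuclear receptor that drives many of the 31 genes, had group means of 17.8 CPM in cKO day 11 and 39.1 CPM in flox day 11, against 51.4 CPM in cKO PBS and 15.7 CPM in flox PBS. Parietal epithelial genes summed to 393.5 ± 169.3 CPM in cKO day 11 and 248 ± 131 CPM in flox day 11, against 207 ± 17.1 CPM in cKO PBS and 214 ± 86.8 CPM in flox PBS. Macrophage genes summed to 671 ± 267 CPM in cKO day 11 and 453 ± 179.2 CPM in flox day 11, against 298 ± 62.8 CPM in cKO PBS and 463 ± 232 CPM in flox PBS. Haemoglobin and other erythrocyte genes had 5 of 5 members below 0, 3 of them at an unadjusted p under 0.05 (9.12% of all genes in either direction). Their sums were 1442 ± 692 CPM in cKO day 11 and 5281 ± 6911 CPM in flox day 11, against 11136 ± 8304 CPM in cKO PBS and 6834 ± 6579 CPM in flox PBS. Single libraries carried the flox means: replicate 1 of flox day 11 had 15636 CPM, against 1460 to 2233 CPM in the other 3. In flox PBS replicate 3 had 14427 CPM, against 2829 and 3245 CPM. The cKO PBS libraries had 18243, 2009 and 13155 CPM.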
